A study of Homo sapiens with 12 samples.

Results

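The genes described here are 10 of the unfolded protein response, the stress response of the endoplasmic reticulum (ER): the sensors ERN1 and ATF6, the transcription factor XBP1, and the ER chaperones and cofactors HSPA5, HYOU1, DNAJB9, SDF2L1, HSP90B1, CALR and CRELD2. They were picked by name and not by a cut on their values, but with earlier results of these data known. The source was 60671 gene rows that carry a name, and all 10 were among the 16994 genes with enough counts to be tested. Bulk RNA came from wild-type cells of HCT116, a human line established from a colorectal carcinoma. Control cells stayed in full DMEM for 24 h or 48 h. Deprived cells were given DMEM with 0 mM cystine, the oxidised dimer of cysteine, for the same times. All 4 groups had 10% fetal bovine serum and antibiotics, and each had 3 samples. Only the deprived cells are described as washed and given fresh medium, so that step and the loss of cystine cannot be told apart. Whether the 3 samples of a group grew as separate cultures is not stated, and their spread, on which every p-value rests, may therefore be technical.

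The ER folds secreted and membrane proteins and forms their disulfide bonds, which join cysteine residues. When unfolded protein builds up there, HSPA5 (BiP) leaves the sensors IRE1, ATF6 and PERK, which then signal to the nucleus and the ribosome. IRE1, encoded by ERN1, cuts XBP1 mRNA so that an active transcription factor can be made, ATF6 is cut in the Golgi to release its own transcription factor, and PERK, encoded by EIF2AK3, slows translation and raises ATF4 and CHOP. XBP1 and ATF6 act on chaperone promoters through the ER stress response element (ERSE), where they work beside the CCAAT-binding factor NF-Y. The counts here are per gene: they hold neither the splicing of XBP1 nor the state of a sensor protein.

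Promoter sequences of 5 members hold an exact match to that element. RefSeq (GRCh38.p14) promoters, from 250 bases before to 50 bases after each start, were searched on both strands for ERSE (CCAAT, 9 bases of any kind, then CCACG), ERSE-II (ATTGG, 1 base of any kind, then CCACG), the core of the XBP1 element UPRE (TGACGTGG) and a C/EBP-ATF element (TGATGNAA), to which CHOP and ATF4 bind. ERSE was found in 27 of 35116 promoters (0.0769%), and 5 member genes were among those with a match: HSPA5, HSP90B1, XBP1, CALR and CRELD2. ERSE-II was found in 19 promoters (0.0541%), among them those of HYOU1 and SDF2L1. A UPRE core, present in 0.729% of promoters, was found in HYOU1 alone among the members, where its letters overlap the farther of its 2 ERSE-II matches. The C/EBP-ATF element, in 3.62% of promoters, had 0 matches in members. ERN1, ATF6 and DNAJB9 had no match to any of the 4 in the RefSeq stretch searched.

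The stretches from 250 to 34 bases before the start are shown for the genes whose counts the results turn on, HSPA5, XBP1 and HYOU1, for CALR, which has the same element but moved little, and for ATF6, which has none of these elements. Capitals mark the fixed letters of ERSE in HSPA5, XBP1 and CALR, and of ERSE-II with the UPRE core in HYOU1. HSPA5 lies at chr9:125241377-125241593 (minus strand), XBP1 at chr22:28800603-28800819 (minus strand, the farther upstream of its 2 RefSeq promoters), HYOU1 at chr11:119057239-119057455 (minus strand), CALR at chr19:12938359-12938575 (plus strand) and ATF6 at chr1:161766070-161766286 (plus strand). The element of CALR reads on the strand opposite to the gene, as do both ERSE-II matches of HYOU1, so their capitals show the reverse complement.
HSPA5: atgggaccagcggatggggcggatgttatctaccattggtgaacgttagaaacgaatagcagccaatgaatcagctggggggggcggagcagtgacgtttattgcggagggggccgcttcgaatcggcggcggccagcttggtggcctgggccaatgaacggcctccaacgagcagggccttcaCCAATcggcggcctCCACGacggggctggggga
XBP1: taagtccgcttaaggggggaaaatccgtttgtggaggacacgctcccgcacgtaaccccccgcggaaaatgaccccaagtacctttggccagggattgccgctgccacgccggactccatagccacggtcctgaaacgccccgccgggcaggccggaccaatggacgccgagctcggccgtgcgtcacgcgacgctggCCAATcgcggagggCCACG
HYOU1: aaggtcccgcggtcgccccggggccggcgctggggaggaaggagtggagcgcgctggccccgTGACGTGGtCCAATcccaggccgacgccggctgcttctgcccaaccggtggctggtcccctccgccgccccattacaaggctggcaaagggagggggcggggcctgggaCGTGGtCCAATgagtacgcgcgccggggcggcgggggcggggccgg
CALR: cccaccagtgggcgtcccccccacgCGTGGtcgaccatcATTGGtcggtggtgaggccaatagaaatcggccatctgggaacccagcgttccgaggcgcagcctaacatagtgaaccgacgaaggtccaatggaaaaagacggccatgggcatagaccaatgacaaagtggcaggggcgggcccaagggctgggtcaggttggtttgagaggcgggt
ATF6: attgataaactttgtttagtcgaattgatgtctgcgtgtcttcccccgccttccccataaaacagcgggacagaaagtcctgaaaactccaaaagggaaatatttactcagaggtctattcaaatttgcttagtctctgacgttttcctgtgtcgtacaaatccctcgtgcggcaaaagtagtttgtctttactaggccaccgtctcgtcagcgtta

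Matches in other members are given as the element alone, read along the strand on which it matches, to compare the bases between its fixed letters. HSP90B1 has ERSE at chr12:103930216-103930234, 176 to 194 bases before the start, and again on the opposite strand at chr12:103930321-103930339, 71 to 89 bases before it. It was the one promoter of the 35116 with 2 exact ERSE matches, just as HYOU1 was for ERSE-II. Sites that differ from an element in any fixed letter were not counted, in HSPA5 or elsewhere. The CRELD2 element lies 62 to 80 bases before the start at chr22:49918554-49918572 and the SDF2L1 element 178 to 188 bases before it at chr22:21642114-21642124, both on the opposite strand. For comparison, the ERSE of HSPA5 lies 48 to 66 bases before the start. All these distances are from the RefSeq start. For HSP90B1, CRELD2, ERN1 and DNAJB9 the gene extents given below, from GENCODE, begin upstream of the whole stretch searched. The HSP90B1 and CRELD2 elements thus lie inside those extents, and sequence before the GENCODE starts of these genes was not searched.
HSPA5 ERSE: CCAATcggcggcctCCACG
HSP90B1 far ERSE: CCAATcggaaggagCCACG
HSP90B1 near ERSE: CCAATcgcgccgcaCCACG
CRELD2 ERSE: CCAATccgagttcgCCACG
CALR ERSE: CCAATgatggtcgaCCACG
HYOU1 ERSE-II: ATTGGaCCACG
SDF2L1 ERSE-II: ATTGGtCCACG

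**Figure D1:**
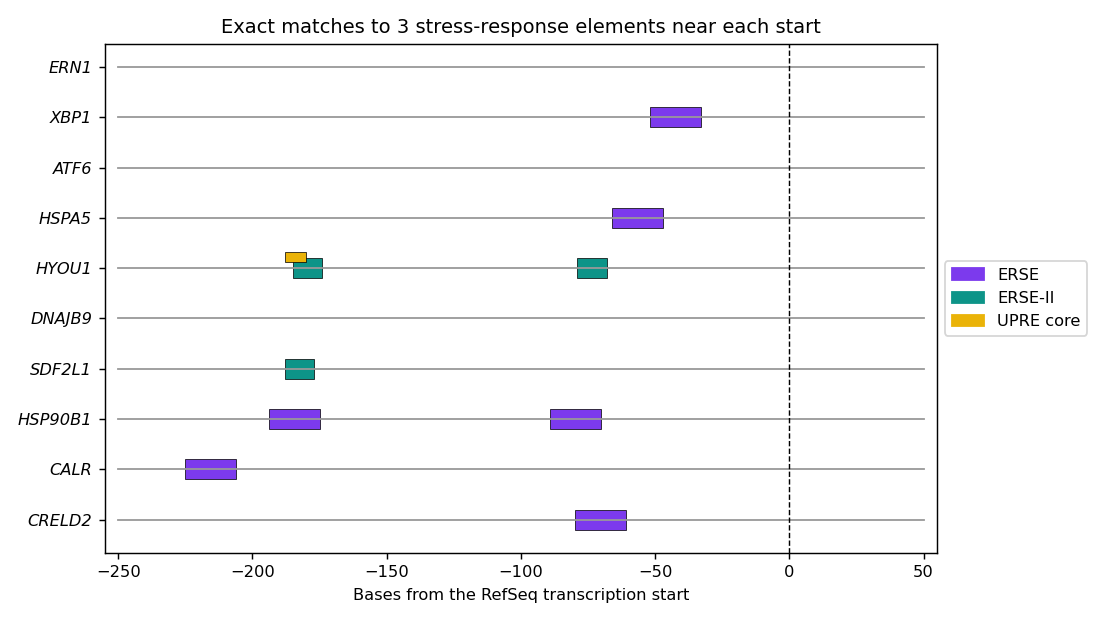
Position of exact matches to ERSE, ERSE-II and the UPRE core in the promoter of each of the 10 genes. The x axis gives bases from the RefSeq start, and for XBP1 the farther upstream of 2 promoters is drawn. Matches lie between 34 and 225 bases before the start, and ERN1, ATF6 and DNAJB9 have none.

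Total estimated counts per sample lay between 19146108 and 24179533. EPCAM (251 to 323 CPM), CDH1, KRT8, KRT18 and KRT19 were expressed in all 12 samples and the intestinal factor CDX2 lay at 13 to 21.4 CPM, while its relative CDX1 was at 0 throughout and KRT20 and VIL1 stayed at or under 2.65 CPM. Of 5 leukocyte markers PTPRC and CD3E were at 0 in every sample, and CD68 made up nearly all of the summed level, which ran from 4.56 to 5.13 CPM in control cells and 11.1 to 11.9 CPM in deprived cells at 24 h, and from 10 to 11.2 CPM and 22.4 to 27 CPM at 48 h. Fibroblast markers summed to 32.3 to 34.2 CPM in control and 16.3 to 20.7 CPM in deprived cells at 24 h, and to 44.7 to 49.3 CPM and 20.4 to 22.6 CPM at 48 h, mostly COL1A1. Endothelial markers summed to 44.9 to 52.4 CPM in control and 32.7 to 33.4 CPM in deprived cells at 24 h, and to 48.9 to 58 CPM and 20.1 to 22.5 CPM at 48 h, mostly EGFL7. The part of these levels in the results for the 10 genes was not tested.

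After 24 h without cystine, 8 of the 10 genes rose, 0 fell, and CALR and CRELD2 were not called. A call means an adjusted p under 0.05 by edgeR's quasi-likelihood test with Benjamini-Hochberg adjustment over all 16994 genes, of which 55.6% were called at 24 h and 28.8% were called higher. HSPA5, XBP1, ERN1, DNAJB9, HYOU1 and ATF6 rose at least 2-fold, as did 4.84% of all tested genes. The median log2 fold change of the 10 genes was 1.45, against -0.01 over all tested genes. After 48 h, 9 rose and HSP90B1 fell, where 68.3% of all genes were called, 33.5% higher and 34.9% lower. The same 6 genes passed 2-fold at 48 h, as did 8.59% of all genes, and the median of the 10 was 1.3 against -0.02. Between control and deprived samples, values did not overlap for 9 of the 10 genes at 24 h and for 10 at 48 h, which held for 62.8% and 70% of all genes tested. In bulk RNA a change in the number of cells that hold a transcript cannot be told apart from a change in its amount per cell.

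**Figure D2:**
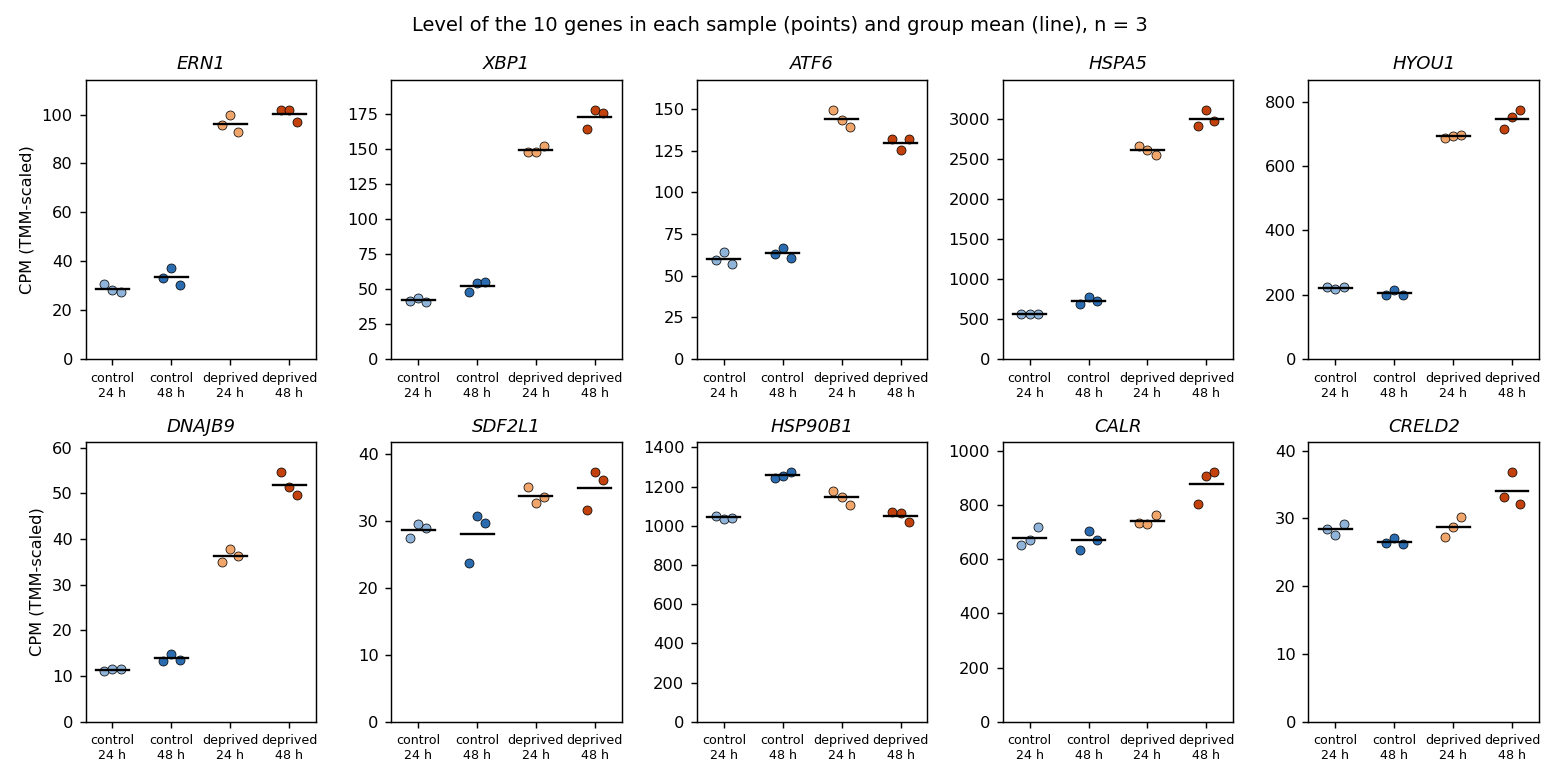
CPM (counts scaled to library size with TMM factors) of each of the 10 genes by group, with 1 point per sample and a line at the mean of 3 samples; each y axis starts at 0 and has its own range. ERN1, XBP1, ATF6, HSPA5, HYOU1 and DNAJB9 are set far apart by medium, while HSP90B1, CALR, SDF2L1 and CRELD2 lie close together.

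Both sensors among the 10 rose. ERN1 (chr17:64039142-64130819, minus strand, GRCh38) encodes IRE1, the kinase and RNase of the ER membrane. At 24 h it stood at 30.8, 28.2 and 27.2 CPM in the control samples and at 95.8, 99.7 and 93.0 CPM in the deprived ones. Values at 48 h were 33.1, 37.3 and 30.4 CPM in control and 102, 101.7 and 96.8 CPM in deprived samples. Every deprived sample was above every control sample. The log2 fold change of ERN1 was 1.74 ± 0.07 (SE) at 24 h (adjusted p = 2.17e-13) and 1.58 ± 0.07 at 48 h (adjusted p = 1.73e-13), or 3.34-fold and 2.98-fold.

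ATF6 (chr1:161766294-161964070, plus strand) is the precursor of the transcription factor that is freed by cutting in the Golgi. It went from 59.5, 63.9 and 56.8 CPM in control to 149.6, 143 and 139 CPM in deprived samples at 24 h. At 48 h the control samples had 63.3, 66.7 and 60.8 CPM and the deprived ones 132, 125 and 132 CPM. The groups again did not overlap, and the deprived samples were lower at 48 h than at 24 h. ATF6 rose by 1.26 ± 0.06 on the log2 scale at 24 h (2.40-fold, adjusted p = 1.36e-12) and by 1.03 ± 0.06 at 48 h (2.04-fold, adjusted p = 6.37e-12). A processed pseudogene on the same strand, AL391825.1, lies within the extent of ATF6 and could share reads with it.

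XBP1 (chr22:28794555-28800597, minus strand) encodes the factor whose mRNA is cut by IRE1. Control samples held 41.6, 43.7 and 40.6 CPM at 24 h and deprived samples 147.6, 148 and 152 CPM. At 48 h these were 47.8, 54.5 and 55.2 CPM and 164, 178 and 176 CPM. All 6 deprived samples were above all 6 control samples. XBP1 rose 3.56-fold at 24 h (log2 1.83 ± 0.06, adjusted p = 1.7e-14) and 3.29-fold at 48 h (log2 1.72 ± 0.06, adjusted p = 7.01e-15). Both spliced and unspliced XBP1 mRNA enter this count.

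HSPA5, the HSP70 chaperone of the ER lumen, rose most of the 10 genes. It lies at chr9:125234853-125241330 on the minus strand. At 24 h it stood at 561, 564 and 558 CPM in control samples and at 2668, 2615 and 2546 CPM in deprived samples. At 48 h control samples held 690.3, 774 and 731 CPM and deprived samples 2915, 3119 and 2979 CPM. The lowest deprived sample was thus far above the highest control sample. HSPA5 rose 4.65-fold at 24 h (log2 2.22 ± 0.05, adjusted p = 1.23e-16) and 4.10-fold at 48 h (log2 2.04 ± 0.05, adjusted p = 3.59e-17). Its share of all counts of named genes went from 0.0579% ± 0.00096 to 0.256% ± 0.00697 at 24 h and from 0.0731% ± 0.00292 to 0.296% ± 0.00718 at 48 h (SD, n = 3).

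HYOU1 (chr11:119044189-119057202, minus strand) encodes an ER chaperone that is a nucleotide exchange factor of HSPA5. Its level at 24 h was 225, 217 and 223 CPM in control and 689, 692 and 697 CPM in deprived samples. At 48 h it stood at 199, 214.5 and 199 CPM in control and at 716, 752 and 775 CPM in deprived samples. The groups did not overlap. HYOU1 rose 3.12-fold (log2 1.64 ± 0.05, adjusted p = 2.78e-15) and 3.67-fold (log2 1.87 ± 0.05, adjusted p = 9.57e-17). An antisense gene, AP003392.3, overlaps HYOU1, and without a stated strand setting its reads cannot be told apart from those of HYOU1.

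DNAJB9 (chr7:108569568-108574850, plus strand) encodes ERdj4, a J-domain partner that brings HSPA5 to its clients and to IRE1. It was among the least abundant of the 10. At 24 h it had 11, 11.5 and 11.5 CPM in control samples and 35.1, 37.9 and 36.3 CPM in deprived samples, and at 48 h 13.3, 14.9 and 13.5 CPM against 54.6, 51.3 and 49.6 CPM. Deprived samples were higher throughout, and those at 48 h were all above those at 24 h. DNAJB9 rose 3.21-fold at 24 h (log2 1.68 ± 0.07, adjusted p = 8.62e-13) and 3.73-fold at 48 h (log2 1.90 ± 0.07, adjusted p = 1.74e-14). PNPLA8 and THAP5 overlap it on the opposite strand.

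SDF2L1 (chr22:21642261-21644298, plus strand), an ER protein that binds the J-domain protein DNAJB11 and keeps clients soluble, moved far less. Control samples held 27.4, 29.5 and 29 CPM at 24 h against 35.0, 32.6 and 33.5 CPM in deprived samples. At 48 h the values were 23.8, 30.8 and 29.7 CPM against 31.6, 37.3 and 36.1 CPM. The groups did not overlap at either time, but the gap at 48 h was under 1 CPM. SDF2L1 rose by 0.24 ± 0.09 on the log2 scale at 24 h (1.18-fold, adjusted p = 0.0288) and by 0.32 ± 0.09 at 48 h (1.25-fold, adjusted p = 0.00329). The call at 24 h was lost without control replicate 1 (adjusted p = 0.0998) or 3 (0.0536), without deprived replicate 1 (0.0904) or 3 (0.0576), and under upper-quartile scaling (0.103) or library totals alone (0.0969).

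HSP90B1 and CALR, also chaperones of the ER lumen, moved far less than HSPA5 and HYOU1 at the mRNA level. HSP90B1 (chr12:103930107-103953645, plus strand) encodes GRP94, the HSP90 of the ER. At 24 h it stood at 1052, 1037 and 1040.5 CPM in control and at 1179, 1147 and 1108 CPM in deprived samples. At 48 h control samples were higher, at 1244, 1254.5 and 1273 CPM, than deprived samples, at 1071, 1065 and 1021 CPM. HSP90B1 was thus 1.10-fold higher in deprived cells at 24 h (log2 0.13 ± 0.04, adjusted p = 0.0123) and fell by 0.26 ± 0.04 on the log2 scale at 48 h (adjusted p = 2.83e-05). The rise at 24 h was lost under upper-quartile scaling (log2 0.06, adjusted p = 0.205), with library totals alone (log2 0.06, adjusted p = 0.229) and without deprived replicate 1 (log2 0.11, adjusted p = 0.0594). TTC41P and C12orf73 on the opposite strand and MIR3652 on the same strand overlap HSP90B1.

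CALR (chr19:12938578-12944489, plus strand) encodes calreticulin, a lectin chaperone of glycoproteins that also binds calcium. Its control samples at 24 h held 651, 669 and 718 CPM and its deprived samples 731, 728 and 762 CPM, which did not overlap. At 48 h the values were 635, 704 and 672 CPM against 802, 906 and 919.9 CPM. CALR was not called at 24 h (log2 0.12 ± 0.06, adjusted p = 0.075) and rose 1.31-fold at 48 h (log2 0.39 ± 0.06, adjusted p = 7.69e-06). At 24 h it was called with the replicate number as a block (adjusted p = 0.0247), when the fit held the 24 h groups alone (0.0338), without control replicate 3 (log2 0.17, adjusted p = 0.0353) and without the 48 h deprived replicate 1 (0.0314). The genes MIR6515, on the same strand, and AC092069.1, on the opposite one, overlap it.

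CRELD2 (chr22:49918167-49927540, plus strand) encodes a cysteine-rich ER protein. At 24 h its control samples, at 28.5, 27.6 and 29.1 CPM, overlapped its deprived samples, at 27.3, 28.7 and 30.2 CPM. At 48 h control samples held 26.4, 27.1 and 26.2 CPM and deprived samples 33.2, 36.8 and 32.2 CPM, with no overlap. The change was 0.02 ± 0.07 on the log2 scale at 24 h (95% interval -0.12 to 0.15, adjusted p = 0.836) and 0.36 ± 0.07 at 48 h (1.28-fold, adjusted p = 0.000113). Its sign at 24 h was not fixed: it was -0.05 under upper-quartile scaling and -0.06 with library totals alone. ALG12 overlaps CRELD2 on the opposite strand.

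**Figure D3:**
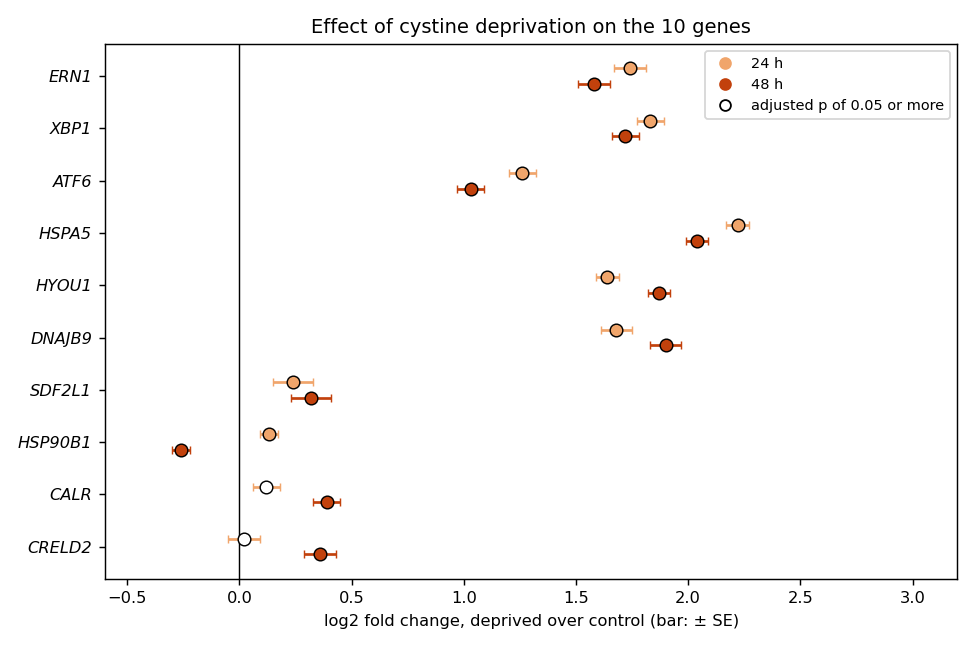
Log2 fold change of each of the 10 genes, deprived over control, at 24 h and 48 h, with bars of ± 1 SE and open points where the adjusted p was 0.05 or more. The genes from ERN1 to DNAJB9 lie between 1.03 and 2.22, and the other 4 lie between -0.26 and 0.39.

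Whether the response differed between the times was tested as the difference of the log2 fold changes, 48 h minus 24 h, for which 35.6% of all genes were called, 16.4% higher and 19.2% lower. Among the 10, HYOU1, CRELD2 and CALR had a larger effect at 48 h and HSPA5, HSP90B1 and ATF6 a smaller one. The difference was 0.34 ± 0.10 for CRELD2 (adjusted p = 0.01), 0.26 ± 0.08 for CALR (adjusted p = 0.0176) and 0.23 ± 0.07 for HYOU1 (adjusted p = 0.0116). For HSP90B1 it was -0.39 ± 0.06 (adjusted p = 5.36e-05), and its fold change turned from above to below 0. That of HSPA5 was -0.18 ± 0.07 (adjusted p = 0.0454), and that of ATF6 was -0.23 ± 0.08 (adjusted p = 0.0283). XBP1, ERN1, DNAJB9 and SDF2L1 were not called, with 95% intervals of -0.28 to 0.05, -0.35 to 0.02, 0.02 to 0.42 and -0.16 to 0.32, and adjusted p-values of 0.322, 0.203, 0.112 and 0.655.

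The calls for HSP90B1, HYOU1 and CRELD2 were kept in all 19 alternatives. The call for HSPA5 was lost in each fit that left out 1 library other than control 48 h replicate 1 or deprived 48 h replicate 2 (adjusted p of 0.0566 to 0.131). On all 12 samples it was lost under RLE scaling (0.0718), with library totals alone (0.0732) and with no filter (0.103), and it held in 6 of 19 alternatives. The ATF6 call was lost without control 24 h replicate 1 (0.0636) or 3 (0.086), control 48 h replicate 2 (0.0785), deprived 24 h replicate 1 (0.0791) or 2 (0.0525), or deprived 48 h replicate 2 (0.0794), and also with library totals alone (0.0905) or no filter (0.0674). That of CALR was lost without control 24 h replicate 3 (0.0519) or deprived 48 h replicate 3 (0.0512).

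Some of the 10 genes also moved with time in control cells, which enter the difference above. Between 24 h and 48 h, HSPA5 (log2 0.38 ± 0.05, adjusted p = 1.71e-05), HSP90B1 (0.27 ± 0.04, adjusted p = 0.000173), XBP1 (0.32 ± 0.06, adjusted p = 0.000996), DNAJB9 (0.29 ± 0.08, adjusted p = 0.0123) and ERN1 (0.22 ± 0.07, adjusted p = 0.0331) rose in control cells and 0 members fell. In that comparison 23% of all genes were called, 12.7% higher and 10.4% lower, and of the calls 55% were higher, or 39.7% with library totals alone as the scale. The ERN1 call was lost without control 24 h replicate 2 (0.104) or 3 (0.129) or control 48 h replicate 1 (0.054) or 2 (0.195), with library totals alone (0.0992) and when the fit held the control groups alone (0.0697). So was the DNAJB9 call without control 24 h replicate 1 (0.0553) or control 48 h replicate 2 (0.0663). HYOU1, at -0.12 ± 0.05 (adjusted p = 0.0791), was called lower without control 48 h replicate 2 (0.0406) or deprived 48 h replicate 1 (0.0484), with library totals alone (0.00439) and by DESeq2 (0.0346).

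In deprived cells 5 members rose between 24 h and 48 h and 2 fell, where 42.5% of all genes were called, 20.7% higher and 21.8% lower. DNAJB9 rose most, by 0.51 ± 0.06 on the log2 scale (1.42-fold, adjusted p = 3.14e-06). CALR rose by 0.24 ± 0.06 (adjusted p = 0.00216), CRELD2 by 0.24 ± 0.07 (adjusted p = 0.00659), XBP1 by 0.21 ± 0.06 (adjusted p = 0.0053) and HSPA5 by 0.20 ± 0.05 (adjusted p = 0.00197). ATF6 fell by 0.15 ± 0.05 (adjusted p = 0.0315) and HSP90B1 by 0.12 ± 0.04 (adjusted p = 0.0286). Both falls were lost without deprived 24 h replicate 1 (adjusted p = 0.134 for ATF6 and 0.126 for HSP90B1), deprived 24 h replicate 2 (0.0712 and 0.0755) or deprived 48 h replicate 2 (0.135 and 0.0547), and that of HSP90B1 also without deprived 48 h replicate 3 (0.122). On all samples both were lost under RLE scaling (0.0512 and 0.0534) and with no filter (0.0781 and 0.12). The CRELD2 rise was lost without deprived 48 h replicate 2 (0.0506). HYOU1, which was not called (log2 0.11 ± 0.05, adjusted p = 0.0665), was called higher without deprived 48 h replicate 1 (0.0212), under RLE (0.0425) and upper-quartile scaling (0.027), with library totals alone (0.0215), among genes averaging 5 CPM or more (0.0413) and by DESeq2 (0.0137). These comparisons share samples with those of the media and are given as values side by side.

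To set the genes beside each other, counts were divided by the deposited gene length and scaled to the same sum in each sample (TPM). In control cells HSP90B1 (746 ± 18.2 TPM at 24 h and 850.3 ± 19.1 TPM at 48 h, SD, n = 3) and CALR (710.4 ± 24.1 and 663 ± 18.4 TPM) led, ahead of HSPA5 (285 ± 6.13 and 351 ± 11.8 TPM). In deprived cells HSPA5 led, at 1286 ± 39.7 TPM at 24 h and 1486 ± 38.9 TPM at 48 h, ahead of HSP90B1 (795 ± 30.3 and 734 ± 45.1 TPM) and CALR (753 ± 11.8 and 892 ± 30.1 TPM). The sample ranges of HSP90B1 and CALR overlapped at 24 h in both media. Below them came HYOU1 in every group, at 101 ± 3.06, 87.9 ± 3.12, 307 ± 2.94 and 332 ± 6 TPM in the groups control 24 h, control 48 h, deprived 24 h and deprived 48 h. ERN1 was lowest in every group, at 7.25 ± 0.595, 8.01 ± 0.795, 23.5 ± 1.10 and 24.6 ± 1.55 TPM in the same order.

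Among the middle ranks, SDF2L1 (69.1 ± 1.89 TPM) was above XBP1 (46.5 ± 2.14 TPM) in control cells at 24 h, and XBP1 (161 ± 1.63 TPM) above SDF2L1 (79.0 ± 2.58 TPM) when cystine was absent. Their ranges overlapped in control cells at 48 h (63.9 ± 6.85 and 55 ± 2.78 TPM). CRELD2 (35.8 ± 0.959 TPM) was above ATF6 (16.0 ± 1.08 TPM) and DNAJB9 (9.37 ± 0.108 TPM) in 24 h control samples. Without cystine, CRELD2 could not be ranked against ATF6 at 24 h (35.2 ± 1.61 and 37.3 ± 1.54 TPM) or against DNAJB9 at 48 h (41.9 ± 2.80 and 41.8 ± 3.82 TPM), where the ranges overlapped.

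**Figure D4:**
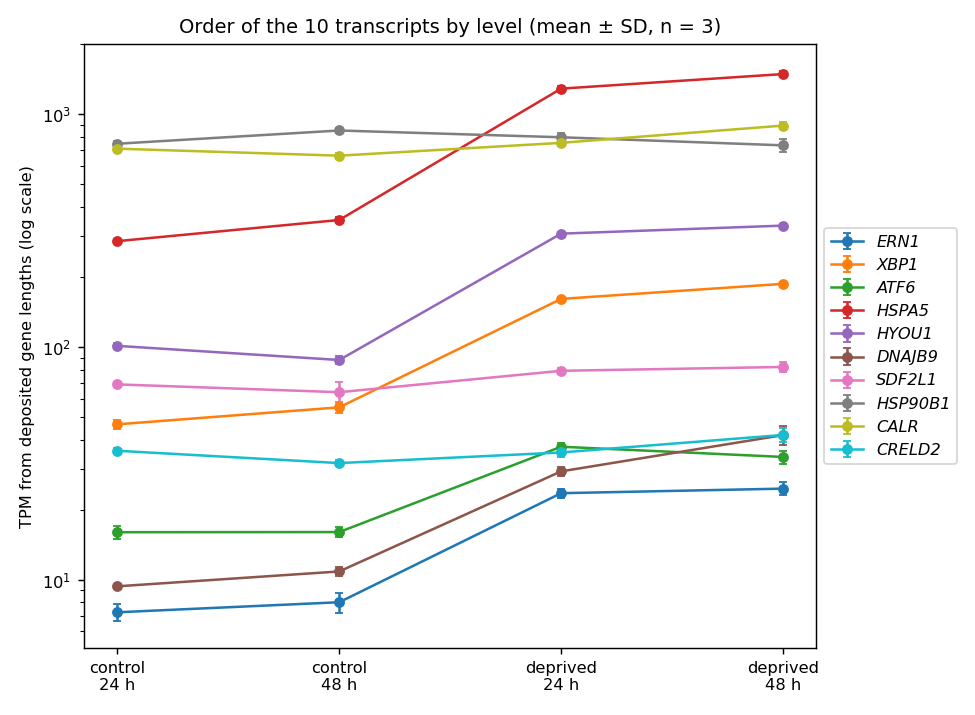
Mean TPM of the 10 genes in each group on a log axis, with bars of ± 1 SD (n = 3); lines join the groups of 1 gene and show no time course. HSPA5 goes from the third rank in control cells to the first in deprived cells, above HSP90B1 and CALR.

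The balance between chaperones shifted toward HSPA5. The TPM ratio of HSPA5 to HSP90B1 was 0.382 ± 0.00362 in control and 1.62 ± 0.0127 in deprived cells at 24 h, and 0.413 ± 0.0226 and 2.03 ± 0.0829 at 48 h (SD, n = 3). HSPA5 made up 14.1% ± 0.286 of the summed TPM of the 10 genes in control and 36.7% ± 0.504 in deprived cells at 24 h, and 16.4% ± 0.377 and 38.5% ± 0.489 at 48 h. Together the 10 genes held 0.279% ± 0.00161 and 0.557% ± 0.0099 of counts at 24 h, and 0.308% ± 0.00494 and 0.61% ± 0.00841 at 48 h. The ratio of SDF2L1 to HSPA5 fell from 0.243 ± 0.00912 to 0.0614 ± 0.00184 at 24 h, with no overlap, and that of HYOU1 to HSPA5 went from 0.355 ± 0.00805 to 0.238 ± 0.00711. At 48 h the HYOU1 ratio was 0.25 ± 0.00708 and 0.224 ± 0.00898. The ratio of DNAJB9 to SDF2L1 went from 0.136 ± 0.00214 to 0.37 ± 0.0274 at 24 h and from 0.171 ± 0.0184 to 0.512 ± 0.0701 at 48 h. Over 9 such quantities at 2 times, 18 exact permutation tests gave a two-sided p of 0.1, the smallest that 3 against 3 samples allow, for all but DNAJB9 over HSPA5 at 48 h (p = 0.2, 0.0309 ± 0.000696 against 0.0281 ± 0.00207), and the adjusted p was 0.106 for the 17 others. None can therefore pass 0.05.

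Other genes of the pathway were taken from lists made by their known roles, and their counts are set against the same shares of all genes. In the list of the PERK arm with ATF4 and CHOP targets, 10 of 10 tested genes rose at each time, with medians of 2.30 and 2.42. Over all tested genes, 28.8% rose at 24 h and 33.5% at 48 h. Whether these rises came through PERK was not tested, and the counts do not hold the state of that protein. PPP1R15A, which brings a phosphatase to eIF2alpha, rose 5.69-fold at 24 h and 11.2-fold at 48 h. TRIB3, a pseudokinase, rose 9.83-fold and 11.2-fold, and SESN2, a sestrin, 6.44-fold and 12-fold. EIF2AK3, the gene of PERK, named after its value was seen, rose 1.74-fold at 24 h (log2 0.80 ± 0.07, adjusted p = 5.96e-09) and 1.24-fold at 48 h (log2 0.31 ± 0.07, adjusted p = 0.000389). The effects on EIF2AK3 differed between the times by -0.49 (adjusted p = 0.000378).

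Genes listed as targets of XBP1 rose in 13 of 13 tested at each time, with medians of 0.82 and 1.01. Over all tested genes, 28.8% rose at 24 h and 33.5% at 48 h. Whether the rises of this list came through XBP1 was not tested, and the counts do not hold its splicing. SEL1L, a scaffold of ER-associated degradation, rose 2.29-fold and 2.60-fold. SRPRB, a subunit of the receptor for the signal recognition particle, rose 2.39-fold and 3.79-fold, and SEC61A1, the channel of the translocon, 1.66-fold and 2.40-fold. ER-associated degradation genes rose in 12 of 13 at each time, with medians of 0.46 and 0.61, and VCP, named after its value was seen, fell by 0.14 ± 0.05 at 24 h (adjusted p = 0.0401). UBE2J1, an ER ubiquitin-conjugating enzyme, rose 1.97-fold and 3.02-fold, and SEL1L belongs to this list too. SEL1L and others are members of more than 1 list, so the counts are not independent.

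Among 20 other ER chaperones and cofactors, 15 rose and 2 fell at 24 h and 16 rose and 4 fell at 48 h. Their medians were 0.51 and 0.77. Over all tested genes, 28.8% rose and 26.9% fell at 24 h, and 33.5% rose and 34.9% fell at 48 h. HERPUD1, a membrane protein of ER-associated degradation, rose 3.58-fold and 4.11-fold. DNAJB11, the J-domain partner of SDF2L1, rose 2.04-fold and 2.42-fold, beside the 1.18-fold and 1.25-fold of SDF2L1. HSPA13, an HSP70 of the ER, rose 2.10-fold and 2.67-fold. The genes that fell, named after their values were seen, were FKBP7 and SDF2 at 24 h, and FKBP7, CNPY3, DNAJC1 and FKBP9 at 48 h.

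Of 8 ATF6 relatives and site proteases, 3 rose and 1 fell at 24 h and 3 rose and 4 fell at 48 h. Of all genes tested, 28.8% rose and 26.9% fell at 24 h and 33.5% rose and 34.9% fell at 48 h. CREB3L2 rose 2.34-fold and 2.08-fold and CREB3 1.47-fold and 1.81-fold, both of them transcription factors held in membranes like ATF6. CREB3L4 was not called at 24 h (log2 0.13 ± 0.10, adjusted p = 0.308) and fell by 0.71 ± 0.10 at 48 h (adjusted p = 4.73e-06). ATF6B, the closest relative of ATF6, named after its value was seen, stood at -0.01 ± 0.06 at 24 h (adjusted p = 0.942) and fell by 0.29 ± 0.06 at 48 h (adjusted p = 0.000544). Also named after their values were seen, CREB3L3 and MBTPS2 were called at 24 h, lower and higher, and CREB3L1, CREB3L3 and MBTPS1 at 48 h, lower, lower and higher. CREB3L1 and CREB3L3 averaged at most 0.761 and 1.33 CPM in any group, and among the 6 of these genes averaging 5 CPM or more 0 fell at 24 h and 2 at 48 h.

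Of 4 genes around IRE1, 0 rose, 2 fell at 24 h and 1 fell at 48 h. Over all tested genes, 28.8% rose and 26.9% fell at 24 h, and 33.5% rose and 34.9% fell at 48 h. BLOC1S1, an mRNA that IRE1 cuts under stress, fell by 0.30 ± 0.11 at 24 h (adjusted p = 0.0301) and by 0.79 ± 0.11 at 48 h (adjusted p = 5.38e-06). Its call at 24 h was lost without control 24 h replicate 2 (0.0981) or 3 (0.124) or deprived 24 h replicate 2 (0.0679) or 3 (0.0854). RTCB, the ligase that joins cut XBP1 mRNA, was not called, with -0.14 ± 0.06 at 24 h (adjusted p = 0.0663) and 0.12 ± 0.06 at 48 h (adjusted p = 0.105). At 24 h RTCB was called lower under upper-quartile scaling (0.00557), with library totals alone (0.00304), among genes averaging 5 CPM or more (0.0203), with the replicate number as a block (0.0392), when the fit held the 24 h groups alone (0.0292) and without deprived 24 h replicate 3 (0.0416), and at 48 h it was called higher without deprived 48 h replicate 1 (0.0297). ERN2, the relative of ERN1, named after its value was seen, was the other fall at 24 h and had a mean of 0.678 CPM or less in each group.

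**Figure D5:**
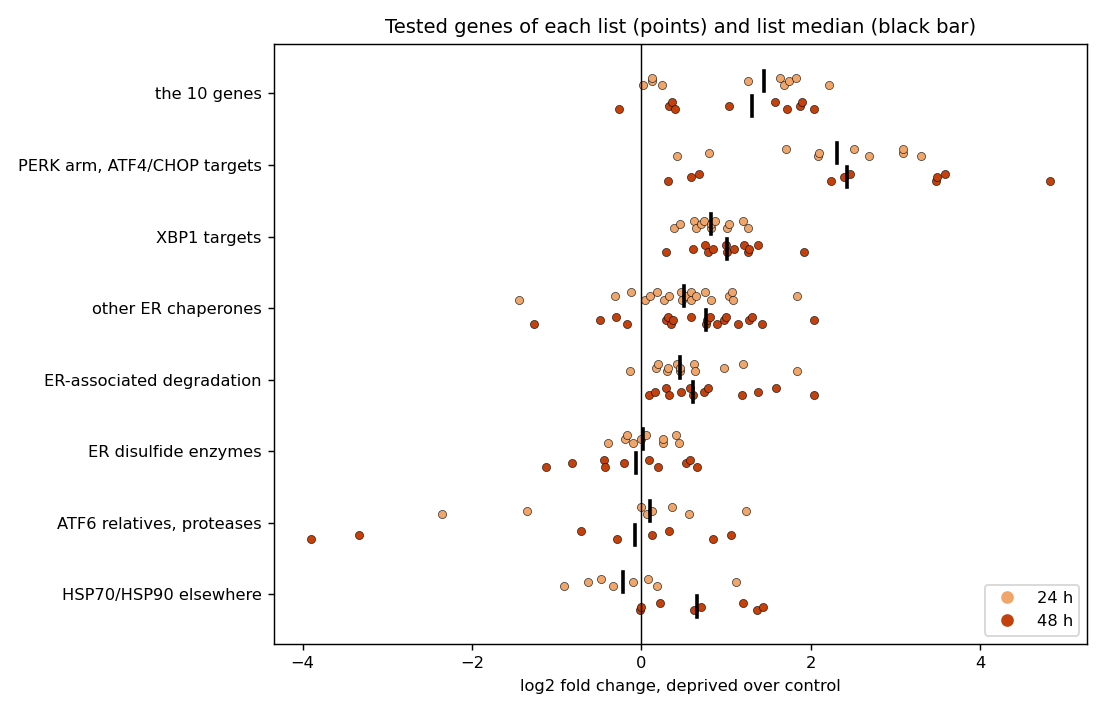
Log2 fold change, deprived over control, of every tested gene of the 10 and of 7 other lists at 24 h and 48 h, with a black bar at each median. The 10 genes split into 6 above 1 and 4 near 0, the PERK list reaches medians of 2.30 and 2.42, and the XBP1 targets lie above 0 at both times.

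Beyond the lists, genes whose log2 CPM, centred on their own mean, followed that of HSPA5 or ERN1 most closely over the 12 samples were sought among the 11752 other genes that averaged 5 CPM or more. Nearest to HSPA5 were CEBPG and GTPBP2 (each at a root mean square distance of 0.11), GAS5 (0.14), PCK2 (0.15) and FHL2 (0.15). Nearest to ERN1 were SARS1, MICAL2, SLC43A1, CLIP4 and AXL, all at 0.11. Within the 10 genes CRELD2 and CALR were closest to each other (0.08), and XBP1 was equally near to ERN1 and DNAJB9 (0.13), while HSPA5 was nearest to XBP1 (0.18). These distances mostly follow the contrast of media and are a description.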

How the data were processed

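Values of each gene, as deposited by the authors, were taken as estimated counts without normalization, and 14% of them are not whole. Their totals differ between samples, although the labels name a TPM output. Per the submitters' processing notes, the authors used the build GRCh38 with fastp, HISAT and RSEM. Versions, strand setting and annotation release are not given in the sources used here, nor is the definition of the deposited gene length. Counts were rounded. The 316 of 60987 rows without a gene name, 0.748% to 1.65% of counts, were left out. Genes passing filterByExpr (minimum count 10, total 15) entered 1 edgeR 4.0.16 quasi-likelihood fit of 4 group means over 12 samples (R 4.3.3, TMM, 8 residual degrees of freedom), with Benjamini-Hochberg adjustment at 0.05. The biological coefficient of variation was 6.4%. Standard errors are the log2 fold change over the root of F, and 95% intervals take their width from the normal distribution.

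Genes named by rule were all 10 members, and of each other list the at most 3 with the smallest adjusted p at 48 h. To these came the 5 genes nearest in pattern to HSPA5 and to ERN1. Further genes of the lists were named after their values were seen, and the text says so where their list is described. The members, lists and tests were chosen with earlier results of these data known. Gene coordinates are from GENCODE on GRCh38, matched by identifier. Replicates differed by more than counting noise (a chi-square of 3 to 8.12 for each degree of freedom). Pseudogene or relative copies of HSPA5, HSP90B1, XBP1 and CALR held at most 9 counts. Alternatives were RLE and upper-quartile scaling, library totals alone, DESeq2 1.42.0, no filter, a mean of at least 5 CPM, a replicate block, only the compared groups, and leaving out each sample. The fit was tested on simulated data with changes of known size. It recovered 53.7% of 1.5-fold changes at 24 h and 55.2% at 48 h, and 71.6% and 79.1% of 2-fold ones. Of its calls, 3.95% at 24 h and 6.33% at 48 h were false. Far fewer genes were changed there than were called in the data.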

Additional observations from a re-analysis of the deposited data

Results flagged for a closer look

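A test of the difference between the effect of deprivation at 48 h and at 24 h (48 h minus 24 h, log2 scale, adjusted p under 0.05) singled out 26 of the genes named. Among the 10 members these were HSPA5 (-0.18), HSP90B1 (-0.39), HYOU1 (0.23), ATF6 (-0.23), CRELD2 (0.34) and CALR (0.26).

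In the whole PERK list, 6 of 10 genes were called with a larger effect at 48 h and 3 with a smaller one. Outside the flagged genes, and named after their values were seen, these include CHAC1 (1.74), DDIT4 (-1.11) and DDIT3, the gene of CHOP (-0.85). Of the flagged genes in the PERK list, the effect was larger at 48 h for PPP1R15A (0.98) and SESN2 (0.89) and smaller for EIF2AK3 (-0.49). Among relatives and partners of the sensors it was larger for CREB3 (0.29) and RTCB (0.26), and smaller or more negative for CREB3L4 (-0.83), ATF6B (-0.29) and BLOC1S1 (-0.49). It was larger for SRPRB (0.67), UBE2J1 (0.62), SEC61A1 (0.52), HSPA13 (0.35), DNAJB11 (0.25) and SEL1L (0.18). The disulfide enzymes PDIA5 (-0.75) and ERO1A (-0.63) had a more negative effect at 48 h. The cytosolic chaperones HSPA8 (1.55), HSP90AA1 (1.14), HSP90AB1 (0.61) and HSPA4 (0.52) had a higher one. Some of these calls were not kept in all 19 alternatives. HSPA5 lost its call in 13, ATF6 in 8 and CALR in 2, as given in the report. SEL1L, at an adjusted p of 0.05 after rounding, lost it in 11 (up to 0.112), among them no filter (0.112), a floor of 5 CPM (0.053), and leaving out control 24 h replicate 1 or 2, any control 48 h replicate, deprived 24 h replicate 2 or 3, or deprived 48 h replicate 1 or 2. CREB3 lost it in 8 (up to 0.0993), without replicate 2 or 3 of control 24 h, deprived 24 h or deprived 48 h, or replicate 1 or 3 of control 48 h. RTCB lost it in 6 (up to 0.0868), without control 24 h replicate 3, control 48 h replicate 1, deprived 24 h replicate 1 or 2, or deprived 48 h replicate 2 or 3. ATF6B lost it in 6 (up to 0.0634), with library totals alone and without control 24 h or 48 h replicate 2, deprived 24 h replicate 1 or 2, or deprived 48 h replicate 3. BLOC1S1 lost it in 3 (up to 0.0749), without control 24 h replicate 1, control 48 h replicate 3 or deprived 48 h replicate 1, and DNAJB11 in 3 (up to 0.0675), without control 24 h or 48 h replicate 1 or deprived 24 h replicate 2. The other 17 flagged genes kept it in all 19. With 35.6% of all tested genes called, such differences were common in these data.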

How the results depend on the processing

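The effects at 48 h kept direction and call for all 10 genes in 20 alternatives, and those of HSPA5, XBP1, ERN1, DNAJB9, HYOU1 and ATF6 did so at 24 h too. CRELD2 at 24 h turned to -0.05 under upper-quartile scaling, -0.06 with library totals alone, -0.004 among genes averaging 5 CPM or more and, with 1 sample left out, ran from -0.02 (without deprived 24 h replicate 3) to 0.06, with -0.0008 without control 24 h replicate 2. It was called in none of these. Uncalled values that also changed sign were ATF6B at 24 h (-0.03 to 0.03 with 1 sample left out), HSP90AB1 at 48 h (0.0001 without control replicate 2, 0.05 without deprived replicate 1), CALR in control cells over time (0.02 without control 24 h replicate 3 or control 48 h replicate 1), and SDF2L1 without control 48 h replicate 1 (0.08 in control cells over time, and -0.02 for the difference of effects, which reached 0.15 without control 48 h replicate 2). The cause was not tested, other than that fits without a replicate have fewer samples.

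The number of members that fell between times in deprived cells, ATF6 and HSP90B1, became 0 under RLE scaling and with no filter. The number with a smaller effect at 48 h was 1 with library totals alone and with no filter. The number that fell in control cells over time was 1 with library totals alone and by DESeq2. Leaving out 1 sample gave 6 to 9 members higher at 24 h, 9 at 48 h, 2 to 3 higher and 1 to 3 lower for the difference, 3 to 5 higher and 0 to 1 lower over time in control cells, and 4 to 6 higher and 0 to 2 lower in deprived cells. Library totals moved the share of higher calls over time in control cells from 55% to 39.7%. Same-numbered samples deviated together in 8 of 18 pairs (correlation over 0.1, range -0.1 to 0.3), while differently numbered pairs ran from -0.31 to 0.22. The labels give no batch, so the main fit held no pairing. Whether same-numbered samples belong together was not settled. With the replicate number as a block, 9 members were higher at 24 h, CALR being added, and no other member's effect of deprivation at 24 h or 48 h changed its call. The smallest counts of a member in any sample were 224 for DNAJB9, 531 for ERN1, 537 for CRELD2 and 558 for SDF2L1.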

Other observations

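Of 8 tested HSP70 and HSP90 relatives outside the ER, 2 rose and 4 fell at 24 h, and 6 rose and 0 fell at 48 h. Their medians were -0.22 and 0.66. Over all tested genes, 28.8% rose and 26.9% fell at 24 h, and 33.5% rose and 34.9% fell at 48 h. The cytosolic HSPA8 went from 1121 to 1042 CPM at 24 h (not called, adjusted p = 0.191 by edgeR) and from 1020 to 2776 CPM at 48 h (log2 1.44 ± 0.07). At 24 h it was called lower under upper-quartile scaling (-0.18, adjusted p = 0.0226) and with library totals alone (-0.18, adjusted p = 0.009). The mitochondrial HSPA9 rose 2.17-fold and 2.29-fold, and HSPA4 1.13-fold and 1.62-fold, the first of which was lost under upper-quartile scaling (adjusted p = 0.0566). The cytosolic relatives of HSP90B1, named after their values were seen, fell at 24 h, HSP90AA1 by 0.92 ± 0.05 and HSP90AB1 by 0.63 ± 0.06. At 48 h HSP90AA1 rose by 0.22 ± 0.05 and HSP90AB1 was not called (-0.02 ± 0.06, adjusted p = 0.739).

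Of 10 tested enzymes that form disulfide bonds in the ER, 4 rose and 3 fell at 24 h and 4 rose and 5 fell at 48 h, with medians of 0.02 and -0.06. Of all genes, 28.8% rose and 26.9% fell at 24 h and 33.5% rose and 34.9% fell at 48 h. The median at 24 h turned to -0.05 under upper-quartile scaling and with library totals alone. PDIA5, a disulfide isomerase, fell by 0.39 ± 0.07 and 1.13 ± 0.07, and ERO1A, the oxidase that reloads such enzymes, by 0.19 ± 0.06 and 0.82 ± 0.06. ERP29, a relative without the redox site, rose 1.33-fold and 1.49-fold.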
